A study of Mus musculus with 16 samples.

Results

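Malat1, Neat1, Kcnq1ot1, Meg3, Rian and H19 are 6 long noncoding RNAs, out of 55359 genes counted, that were measured by sequencing of polyadenylated RNA in 16 libraries of mouse ovary and kidney. They were chosen by their levels in 1 ovary library, vehicle replicate 3, where earlier results of these data had placed such RNAs far from the rest of the group. Their levels in that library are therefore a description, with no test. The file of that library carried the number 5, and the labels do not settle whether it holds the library they name; it was kept in the group the labels give, and results that rest on it are given with and without it. The groups were ovary with PT-2385, ovary with vehicle, kidney with PT-2385 and kidney with vehicle, with 4 libraries in each. All came from 21-day-old wild-type female CBAF1 mice. Injections were intraperitoneal, every 12 h for 4 days, of PT-2385 at 7.5 mg/kg given in saline or of the vehicle, 5% DMSO in saline. PT-2385 inhibits HIF-2α, the product of Epas1 and a transcription factor of the response to low oxygen, by preventing its dimer with ARNT. All mice, those given vehicle included, also received 5 IU PMSG for 48 h, a gonadotrophin that makes follicles grow, and then 5 IU hCG, which stands in for the surge of luteinising hormone, and tissue was taken 13 h after hCG. Whether each library stands for its own animal is not stated in the labels, and the p-values measure only the spread between libraries, which may be technical.

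Long noncoding RNAs act as RNA, without being translated. Malat1 is an abundant RNA of nuclear speckles, the bodies where splicing factors gather, and its mature end is folded into a triple helix in place of a poly(A) tail. Neat1 is the scaffold of paraspeckles, nuclear bodies that hold RNA-binding proteins, and in human cancer cells it is known as a gene switched on by HIF-2. The other members are imprinted, that is, expressed from the chromosome of 1 parent. Kcnq1ot1 is an unspliced antisense RNA of the paternal chromosome that silences genes around it, among them Cdkn1c, a brake on the cell cycle. Meg3 and Rian are maternally expressed RNAs of the Dlk1-Dio3 region, and Rian carries small nucleolar RNAs (snoRNAs) and microRNAs. H19 is a maternally expressed, mostly cytoplasmic RNA beside Igf2 and the host of miR-675.

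In the coordinates of the count files (GRCm39), Malat1 lay on the minus strand at chr19:5845718-5852700 and Neat1 on the minus strand at chr19:5874736-5895506, with 22035 bases between them. Each was a single exon block. Kcnq1ot1 lay on the minus strand at chr7:142757195-142850286 as 1 exon block of 93.1 kb, all of it within the span of Kcnq1, a potassium channel gene of the plus strand at chr7:142660991-142980779. The exons of the pair shared 121 bases. H19 lay on the same strand at chr7:142129266-142131880, 625 kb away from Kcnq1ot1, and its model held the gene of miR-675. Meg3 at chr12:109506888-109538160 and Rian at chr12:109570242-109628150 lay on the plus strand with 32.1 kb between them, and 8 snoRNA genes lay within Rian. The share of exon bases that another gene model also covered was between 1.2% for Kcnq1ot1 and 9.84% for H19. No strand option was recorded for the counting, so reads from Kcnq1 introns and from Kcnq1ot1 could not be told apart.

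Promoter sequences (250 bases before the start of the gene and 50 after it, RefSeq, build GRCm38.p6, which differs from the build of the counts) were on hand for 4 of the 6 members, and 3 are shown because these members had low levels together in the ovary library by which they were chosen. Capitals mark the core that HIF dimers bind, ACGTG or GCGTG, read on either strand.
Malat1, chr19:5802623-5802922, minus strand: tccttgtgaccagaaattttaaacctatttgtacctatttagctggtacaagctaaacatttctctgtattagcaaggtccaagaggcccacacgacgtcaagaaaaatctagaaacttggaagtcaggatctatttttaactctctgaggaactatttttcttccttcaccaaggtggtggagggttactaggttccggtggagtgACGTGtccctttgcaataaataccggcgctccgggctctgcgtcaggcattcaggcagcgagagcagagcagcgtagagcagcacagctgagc
Kcnq1ot1, chr7:143296498-143296797, minus strand: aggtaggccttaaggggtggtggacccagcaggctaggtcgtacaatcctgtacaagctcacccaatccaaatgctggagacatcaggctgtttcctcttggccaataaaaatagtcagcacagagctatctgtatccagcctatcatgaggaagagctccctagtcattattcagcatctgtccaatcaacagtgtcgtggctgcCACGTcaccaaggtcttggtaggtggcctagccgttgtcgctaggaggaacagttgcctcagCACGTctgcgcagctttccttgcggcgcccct
Meg3, the upstream of 2 starts, chr12:109540746-109541045, plus strand: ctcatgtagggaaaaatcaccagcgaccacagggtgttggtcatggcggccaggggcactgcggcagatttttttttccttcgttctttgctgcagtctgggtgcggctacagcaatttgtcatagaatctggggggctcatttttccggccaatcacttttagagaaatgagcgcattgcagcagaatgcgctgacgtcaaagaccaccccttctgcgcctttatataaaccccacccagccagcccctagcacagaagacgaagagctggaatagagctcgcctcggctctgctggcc
With +1 as the first transcribed base, Malat1 held 1 ACGTG, beginning at -43, and 3 copies of TGACG, part of the site of CREB-type factors, at -154, -45 and -3, of which that at -45 overlapped with the HIF core. Kcnq1ot1 held 2, both on the reverse strand, beginning at -44 and +19, as well as 3 copies of CCAAT, the box that NF-Y binds, and 1 TGACG at -42 that overlapped with a HIF core. The Meg3 window held no HIF core and 2 overlapping copies of TGACG at -57 and -54, with 1 CCAAT at -100. Neither the window of the other Meg3 start nor that of Rian held any of these motifs. Among 32851 promoter windows of this length, 19.6% held ACGTG, 43.8% held either HIF core, 37.4% held CCAAT and 20.8% held TGACG on either strand, so none of these motifs was rare.

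All 6 members passed the filter on low counts in both organs. Levels are counts per 1e6 assigned read pairs (CPM) after TMM scaling within the organ. Malat1 read 1425, 1178, 1084 and 1105 CPM in PT-2385 ovaries (replicates 1 to 4), against 1354, 1899, 640.0 and 1418 CPM in vehicle ovaries. The vehicle ovaries held both the lowest and the highest value, and the PT-2385 ovaries lay between them. In kidney, Malat1 read 1732, 1592, 1483 and 1498 CPM with PT-2385, against 1721, 1582, 1375 and 1595 CPM with vehicle. The kidney groups covered almost the same range.

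Neat1 read 122, 89.6, 77.3 and 74.1 CPM in PT-2385 ovaries, against 119.5, 219.7, 55.7 and 145 CPM in vehicle ovaries. All 4 PT-2385 ovaries but replicate 1 lay below every vehicle ovary other than replicate 3. In kidney, Neat1 read 1105, 1036, 1221 and 1204 CPM with PT-2385, against 674, 915, 1047 and 1045 CPM with vehicle. Only the lowest PT-2385 kidney lay within the vehicle range.

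Kcnq1ot1 read 59.2, 46.4, 46.3 and 46.2 CPM in PT-2385 ovaries, against 47.0, 59.1, 19.7 and 52.6 CPM in vehicle ovaries. Vehicle replicate 3 had less than any other ovary. In kidney it read 22.2, 15.9, 19.1 and 20.4 CPM with PT-2385, against 15.1, 16.2, 16.6 and 16.8 CPM with vehicle. The PT-2385 kidneys, except replicate 2, lay above all vehicle kidneys.

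Meg3 read 55.9, 38.7, 45.2 and 35.0 CPM in PT-2385 ovaries, against 42.9, 39.3, 23.5 and 47.0 CPM in vehicle ovaries. Its neighbour Rian read 56.0, 44.8, 49.3 and 34.2 CPM in PT-2385 ovaries, against 38.6, 33.8, 32.8 and 43.9 CPM in vehicle ovaries. Vehicle replicate 3 stood well below the others for Meg3 but level with replicate 2 for Rian. In kidney the pair was scarce, with Meg3 between 4.56 and 7.96 CPM with PT-2385, against 5.25 to 8.09 CPM with vehicle, and Rian between 2.21 and 4.67 CPM with PT-2385, against 2.44 to 3.99 CPM with vehicle.

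H19 went its own way in ovary. It read 13.5, 17.6, 18.4 and 26.5 CPM in PT-2385 ovaries, against 27.3, 22.8, 23.3 and 21.5 CPM in vehicle ovaries. Vehicle replicate 3 lay in the middle of its group, and the PT-2385 ovary with the least H19 was the library with the most Malat1, Neat1, Kcnq1ot1, Meg3 and Rian. In kidney H19 read 4.11, 2.9, 2.34 and 1.87 CPM with PT-2385, against 2.02, 2.16, 2.41 and 3.58 CPM with vehicle, and the groups overlapped. Behind these kidney values stood between 37 and 102 read pairs per library.

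**Figure D1:**
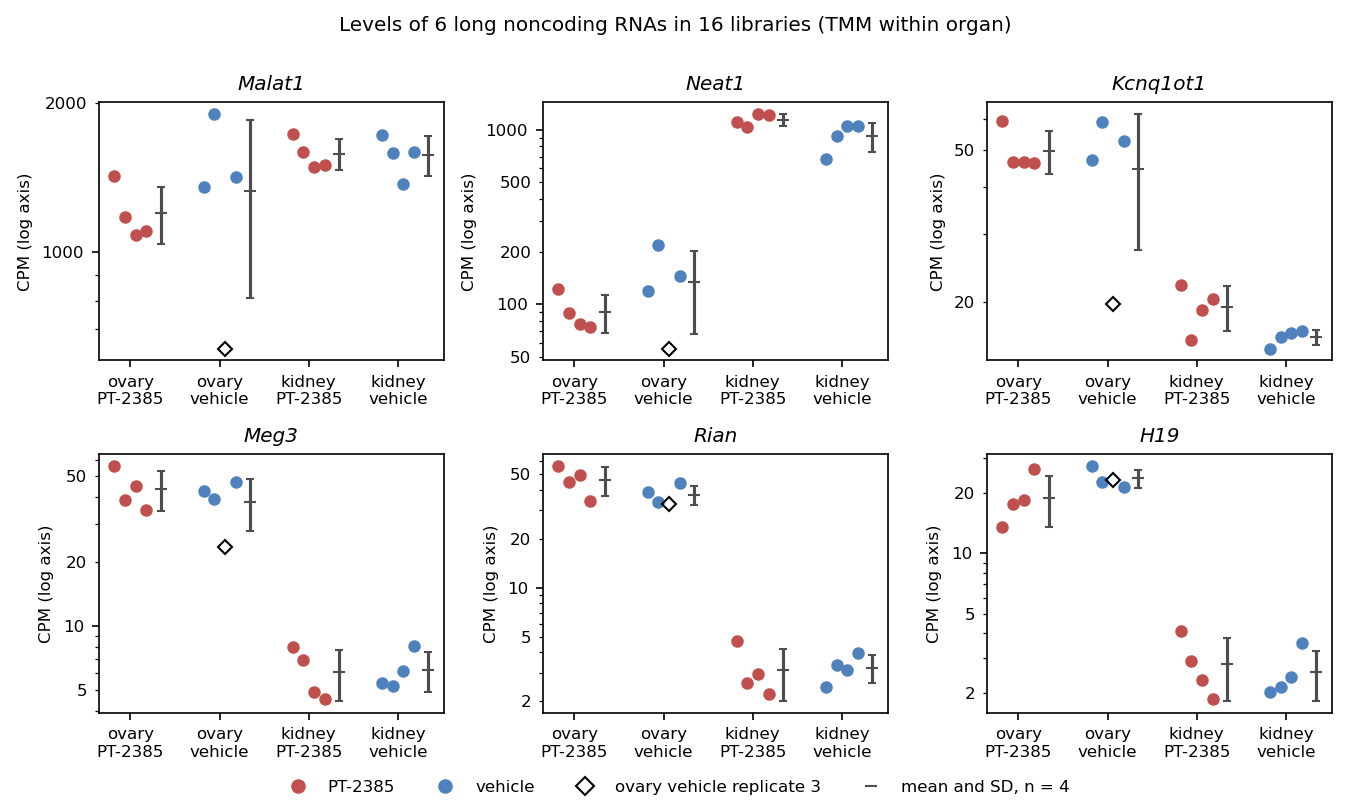
Levels of the 6 RNAs in every library as CPM on a log axis, with PT-2385 left of vehicle in ovary and then in kidney; points are libraries and bars the mean and SD of 4. The open diamond is ovary vehicle replicate 3, which had the lowest Malat1 (640.0 CPM), Neat1, Kcnq1ot1 and Meg3 of the ovaries but not the lowest H19.

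Levels per kb of exon model allow for the length of the model, but not for transcripts shorter than it. Nor do they allow for capture by polyA selection, and Malat1 has no poly(A) tail. The order below is thus one of captured reads. On this scale Malat1 was the highest of the 6 in every group. It came to 172 ± 22.4 CPM per kb in PT-2385 ovaries and 190.1 ± 74.3 in vehicle ovaries (SD, n = 4 each). In vehicle ovaries H19 (10.4 ± 1.09) and Neat1 (6.5 ± 3.27) came next, with Meg3 (2.43 ± 0.655), Rian (1.7 ± 0.232) and Kcnq1ot1 (0.479 ± 0.186) below them. The ranges of mean ± SD overlapped between H19 and Neat1 and between Meg3 and Rian. In vehicle kidneys the order changed to Malat1 (225 ± 20.5), Neat1 (44.3 ± 8.46), H19 (1.11 ± 0.31), Meg3 (0.397 ± 0.0832), Kcnq1ot1 (0.174 ± 0.00797) and Rian (0.147 ± 0.0294), and of neighbours in this order only Kcnq1ot1 and Rian had overlapping ranges of mean ± SD.

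Vehicle ovary was set against vehicle kidney in a fit of all 16 libraries (edgeR quasi-likelihood test, Benjamini-Hochberg adjustment over all 19977 genes). The 3 spliced imprinted RNAs were the most ovarian. Rian was higher in ovary by 3.31 on the log2 scale (SE 0.2, adjusted p = 7.18e-11), H19 by 3.00 (SE 0.234, adjusted p = 2.25e-09) and Meg3 by 2.39 (SE 0.239, adjusted p = 2.14e-07). Kcnq1ot1 was higher in ovary by 1.24 (SE 0.252, adjusted p = 0.00042). Neat1 had a log2 difference of -2.99 (SE 0.333, adjusted p = 1.57e-06), that is, 7.97 times as much in kidney by the means, and Malat1 one of -0.47 that missed the threshold (SE 0.22, adjusted p = 0.0626). Thus 5 of 6 members passed, where 82.8% of all genes tested did, 4 of them higher in ovary (41.3% of all genes) and 1 lower (41.5%). The same 5 passed without ovary vehicle replicate 3. The RNA of ovaries came from the Monarch kit and that of kidneys from Trizol, so organ and isolation method cannot be told apart.

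The genes beside the imprinted members differed in direction between organs. Kcnq1 had a log2 difference of -2.84 between vehicle ovary and vehicle kidney (adjusted p = 9.02e-18) and Cdkn1c one of -2.78 (adjusted p = 2e-15, edgeR), both against the direction of Kcnq1ot1. Dlk1, the paternally expressed growth regulator of the Meg3 region, was higher in ovary by 1.28 (adjusted p = 4.7e-06, edgeR). Igf2, the fetal growth factor beside H19, averaged at most 0.293 CPM in any group and was too low to test in either organ.

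Vehicle ovary replicate 3 departed from the other 3 vehicle ovaries in Malat1 by -1.27, in Neat1 by -1.49 and in Kcnq1ot1 by -1.42 on the log2 scale. Malat1 had 0.416, Neat1 0.357 and Kcnq1ot1 0.375 of the level of the others. Meg3 departed by -0.87, Rian by -0.23 and H19 by -0.03. Of all genes tested in ovary, 1.23% departed as far down as Neat1 or farther, 1.55% as Kcnq1ot1, 2.33% as Malat1 and 6.39% as Meg3. Most of these genes were scarce, and among 6709 genes of at least 30 CPM, counted from the lowest departure, Neat1 stood at rank 2, Kcnq1ot1 at 4 and Malat1 at 10, against ranks 51, 70 and 121 among 14966 genes of at least 1 CPM. All these ranks come from the values by which the members were chosen. Xist, the RNA that coats the inactive X chromosome, departed by -1.16. It is named because it had deviated with the members in the earlier results, so its value too is a description. Replicate 2 had the highest Malat1, Neat1 and Kcnq1ot1 of the vehicle ovaries, and its departures of 0.83, 1.15 and 0.69 are widened by the low replicate 3 in the mean they are taken from. No PT-2385 ovary and no kidney held departures of these 3 RNAs as large as in vehicle replicate 3.

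**Figure D2:**
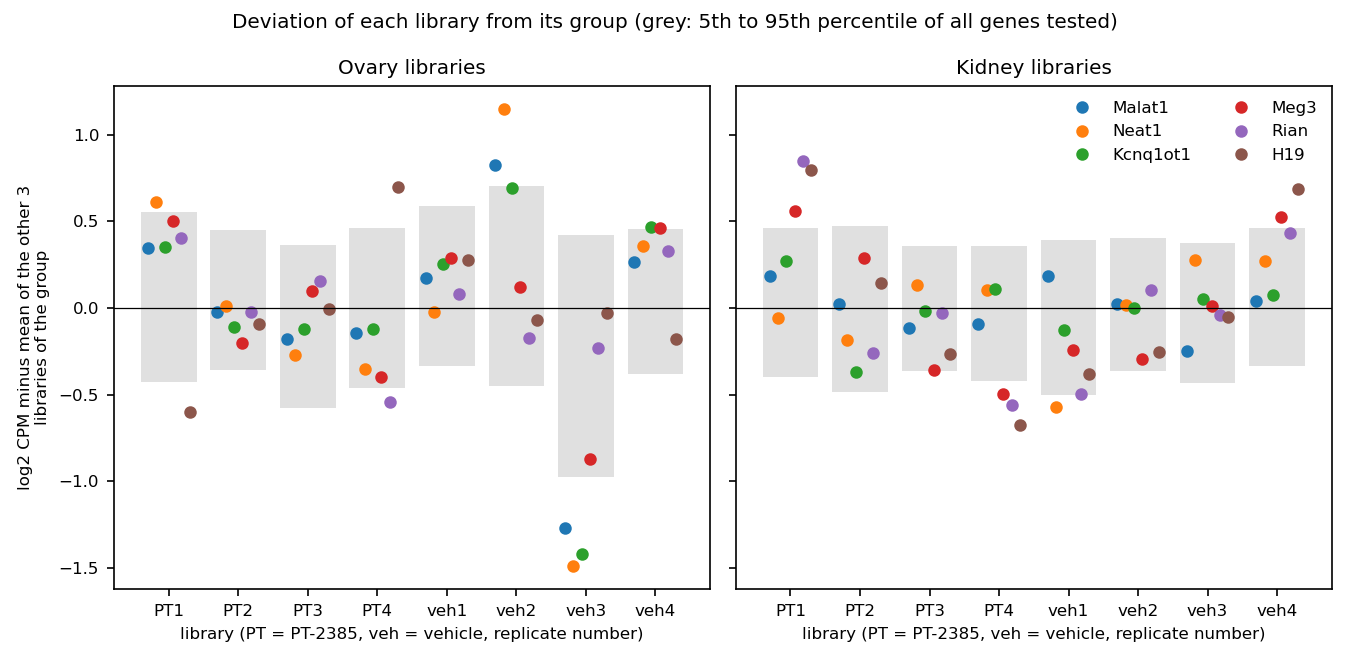
Difference between the log2 CPM of each library and the mean of the other 3 libraries of its group, for the 6 RNAs; grey bars span the 5th to 95th percentile of all genes tested. In ovary vehicle replicate 3 Malat1, Neat1 and Kcnq1ot1 lay between -1.27 and -1.49, below the grey bar. In the kidneys the widest departures of Meg3 and H19 fell in PT-2385 replicates 1 and 4 and vehicle replicate 4. Meg3, Rian and H19 shared a sign in these and also in vehicle replicate 1, where Rian departed by -0.49.

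Ovary vehicle replicate 3 was the deepest ovary library (33.6 M assigned read pairs, 1 M being 1e6) and yet had read pairs on 27498 genes, against 28854 to 29478 in the other vehicle ovaries. Its departure ran through the noncoding RNAs as a class. Of 1533 long noncoding genes tested in ovary, 1236 lay below the other vehicle ovaries, with a median of -0.447, while the median of 14878 coding genes was 0.0126. The median was -0.522 for antisense genes, -0.405 for lincRNAs and -0.549 for 98 snoRNA genes. Vehicle replicate 2, which is part of the mean used for replicate 3, departed the other way, with a long noncoding median of 0.27.

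Lists of genes by function differed in this library. All 13 snoRNA host genes tested and all 13 mitochondrially encoded mRNAs were lower in vehicle replicate 3, with medians of -0.404 and -0.569. In vehicle replicate 2, which is part of the mean they were set against, the medians were 0.175 and 0.571, and all 13 mitochondrial mRNAs were higher. Of 11 other nuclear or regulatory noncoding RNAs 10 were lower in vehicle replicate 3, with a median of -0.534. The lowest of them, at -1.16, was Xist, which had deviated with the members in the earlier results. Messenger RNAs of 19 paraspeckle proteins, the partners of Neat1, had a median of 0.306, with 2 below 0, and those of 19 speckle and splicing proteins one of 0.0604. Imprinted genes other than the members, most of them coding, had medians of 0.0569 for 10 tested neighbours of the members and 0.0741 for 20 other imprinted genes, which ran from -1.73 to 0.429.

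Marker genes of cell types also differed in this library. The summed level of 10 oocyte markers, as CPM of the library total, was 431 CPM, against 621 to 843 CPM in the other vehicle ovaries, and all 10 were lower. The 5 erythrocyte markers summed to 201 CPM, against 89.6 to 121 CPM. Adipocyte markers (7 genes) summed to 10.7 CPM in replicate 3 and to 43.2 CPM in replicate 2, against 11.3 and 16.9 CPM in replicates 1 and 4. All 7 endothelial and all 8 leukocyte markers tested were lower, with medians of -0.261 and -0.294, while granulosa and stroma markers had medians of 0.0819 and 0.157. The summed granulosa markers were nonetheless the lowest of the vehicle ovaries, at 12449 CPM, against 14110.5 to 19379 CPM in the others. No marker of the oocyte, erythrocyte or adipocyte lists was at 0 in the ovaries. Their part in the departure of the members was not tested, and in whole organs fewer cells of a type and less RNA per cell cannot be told apart.

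**Figure D3:**
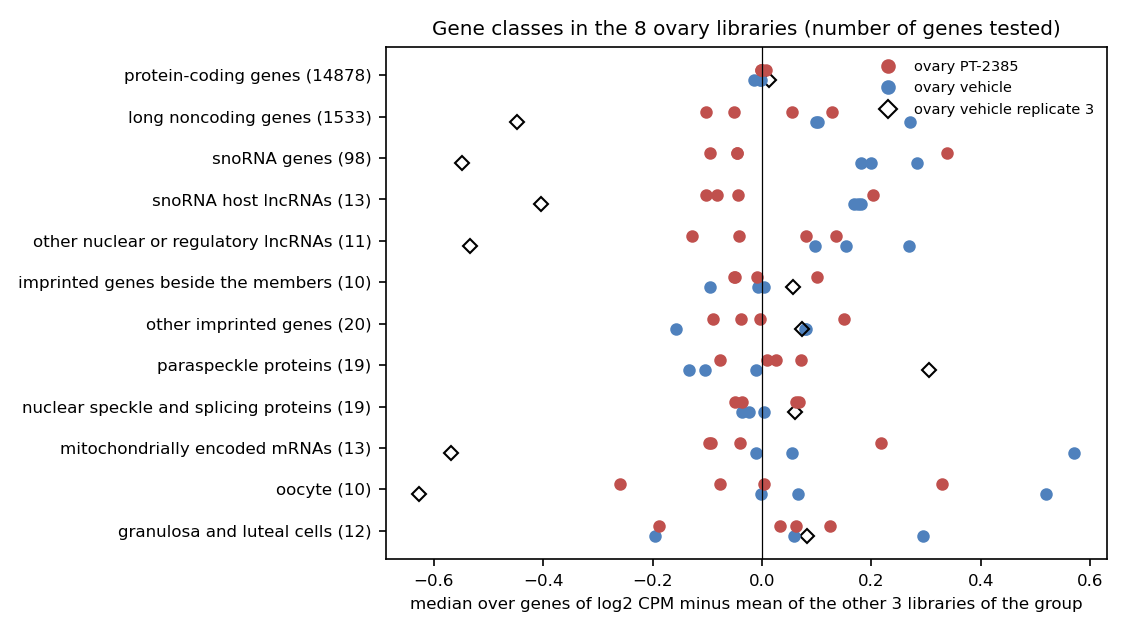
Median departure of gene classes and lists in the 8 ovary libraries, each against the other 3 libraries of its group, with the number of genes tested in brackets. The open diamond, ovary vehicle replicate 3, lies at -0.447 for long noncoding genes and at 0.0126 for coding genes.

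Treatment was tested within each organ, 4 libraries against 4, across all genes. The groups of every member overlapped in ovary, where those of 6.95% of genes did not. No member passed (0 of 6 with edgeR, 0 with DESeq2 and 0 at an unadjusted p under 0.05), where 0.0497% of 18125 genes did. Since vehicle replicate 3, by which the members were chosen, is among these libraries, nothing is read from that count, and the ovary values are a description. Neat1 averaged 90.8 ± 22.1 CPM in PT-2385 ovaries and 135 ± 67.8 CPM in vehicle ovaries (SD, n = 4 each), and its log2 fold change of -0.58 had an SE of 0.395. Malat1 averaged 1198 ± 157 CPM in PT-2385 ovaries and 1328 ± 519 CPM in vehicle ovaries, and its log2 fold change of -0.15 had an SE of 0.273. For Kcnq1ot1 the log2 fold change was 0.15 (SE 0.31), for Meg3 0.19 (SE 0.218), for Rian 0.30 (SE 0.141) and for H19 -0.31 (SE 0.17).

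Without vehicle replicate 3 the ovary fit called 5.9% of 18481 genes, and again none of the 6 members. The log2 fold change of Neat1 was then -0.83 (SE 0.278), while without vehicle replicate 2 it was -0.24, and over 13 alternatives it ran from -0.835 to -0.238. Malat1 came to -0.38 (SE 0.129) without vehicle replicate 3, and without replicate 2 it was 0.07. Kcnq1ot1 turned to -0.10 (SE 0.101) without vehicle replicate 3, and Meg3 came to 0.01 (SE 0.153). Rian (0.24, SE 0.167) and H19 (-0.32, SE 0.21) hardly moved.

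In kidney, whose libraries had no part in choosing the members, 0 of 6 passed with edgeR, where 5.53% of 17763 genes did. DESeq2 called 1455 of these genes, and 4101 had an unadjusted p under 0.05. Kcnq1ot1 passed with DESeq2 and was the 1 member with an unadjusted p under 0.05. It averaged 19.4 ± 2.67 CPM in PT-2385 kidneys and 16.2 ± 0.742 CPM in vehicle kidneys (SD, n = 4 each), and its log2 fold change of 0.27 had an SE of 0.0857 (adjusted p = 0.071 with edgeR and 0.0441 with DESeq2). Over 13 alternatives its adjusted p ran from 0.0167 to 0.188. Neat1 averaged 1142 ± 86.6 CPM in PT-2385 kidneys and 920.3 ± 176 CPM in vehicle kidneys, and its log2 fold change of 0.31 had an SE of 0.14 (adjusted p = 0.235, edgeR). The values of Malat1 (0.01, SE 0.0672), Meg3 (-0.07, SE 0.192), Rian (-0.05, SE 0.214) and H19 (0.11, SE 0.242) lay near 0, with adjusted p from 0.83 to 0.964 (edgeR). The groups of every member overlapped, where those of 13.3% of genes did not. Of the 982 kidney genes called, 325 were higher and 657 lower, or 499 and 489 when scaled by library totals alone.

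The response of ovary minus that of kidney was tested as an interaction over all 16 libraries. Neat1 had the widest difference of the 6, at -0.86 on the log2 scale (SE 0.441), again a description. No member passed (0 with edgeR, 0 with DESeq2 and 0 at an unadjusted p under 0.05), where 0.19% of 19977 genes did. Over 21 alternatives the difference for Neat1 ran from -1.12 (without ovary vehicle replicate 3) to -0.532 (without ovary vehicle replicate 2), and no member was called in any, also without ovary vehicle replicate 3, where 4.0% of 20332 genes were.

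**Figure D4:**
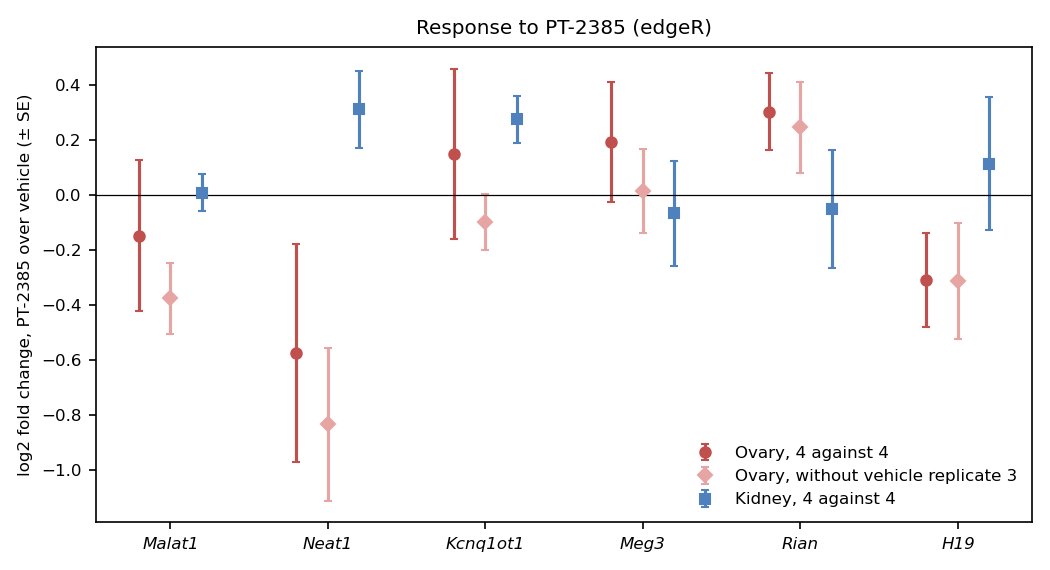
Log2 fold change of PT-2385 over vehicle with its SE (edgeR) for each RNA in ovary, in ovary without vehicle replicate 3 and in kidney. Neat1 lay at -0.58 in ovary and at 0.31 in kidney.

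Ratios of read pair counts within a library cancel its depth and its scaling. The Neat1 count was 8.59%, 7.6%, 7.13% and 6.7% of the Malat1 count in PT-2385 ovaries, against 8.83%, 11.6%, 8.71% and 10.3% in vehicle ovaries. Every PT-2385 ovary lay below every vehicle ovary, by a narrow margin, and vehicle replicate 3 was unremarkable on this scale. Among 18124 other genes, 0.761% had a ratio to Malat1 that was lower in every PT-2385 ovary than in any vehicle ovary. The Kcnq1ot1 count was 4.15%, 3.94%, 4.27% and 4.18% of the Malat1 count in PT-2385 ovaries, against 3.47%, 3.11%, 3.08% and 3.71% in vehicle ovaries. Here every PT-2385 ovary lay above every vehicle ovary, as was the case for 0.281% of genes. The other ratios to Malat1 computed overlapped. Rian was between 3.1% and 4.55% of Malat1 in PT-2385 ovaries, against 1.78% to 5.13% in vehicle ovaries. H19 was between 0.945% and 2.4%, against 1.2% to 3.64%, and Xist between 79.6% and 122%, against 79.7% to 104%. The Kcnq1ot1 count was 11.9, 10.4, 11.2 and 8.92 times that of Kcnq1 in PT-2385 ovaries, against 7.27, 7.91, 3.71 and 8.04 times in vehicle ovaries. This ratio did not overlap, and no share over all genes was computed for it. Kcnq1 by itself was lower in every PT-2385 ovary than in any vehicle ovary, as were 3.77% of genes, while Kcnq1ot1 overlapped. These ratios were looked at after the levels were known and carry no test. Neat1 and Kcnq1ot1 were moreover chosen with Malat1 for low levels in vehicle replicate 3, which most genes did not share. The shares of genes given beside their ratios are therefore no measure of rarity.

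In kidney the same ratios overlapped between the groups. Neat1 came to between 63.8% and 82.3% of Malat1 in PT-2385 kidneys, against 39.1% to 76.2% in vehicle kidneys, and Kcnq1ot1 to between 0.996% and 1.36%, against 0.879% to 1.21%. Meg3 and Rian were counted about equally in ovary, at 86.2% to 102% Meg3 over Rian with PT-2385, against 71.6% to 116% with vehicle. In kidney Meg3 exceeded Rian in all 8 libraries, at 167% to 267% with PT-2385, against 157% to 222% with vehicle.

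**Figure D5:**
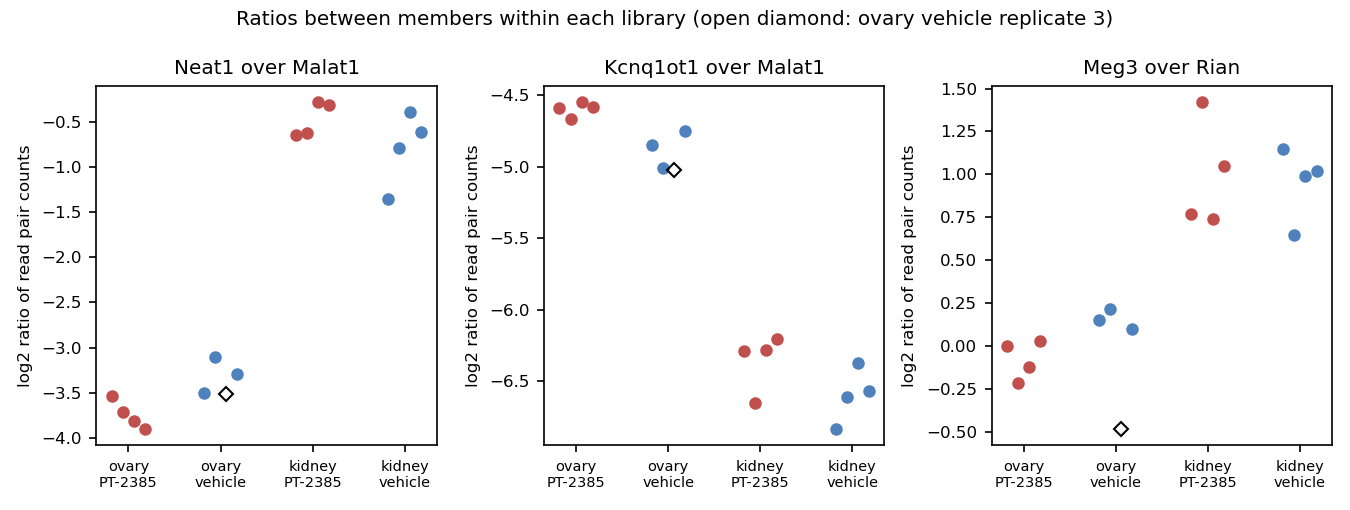
Log2 ratio of read pair counts of Neat1 over Malat1, Kcnq1ot1 over Malat1 and Meg3 over Rian in each library, with PT-2385 left of vehicle. In ovary the Neat1 ratio was lower and the Kcnq1ot1 ratio higher in all PT-2385 libraries than in any vehicle library, while vehicle replicate 3 (open diamond) had the lowest Meg3 ratio, -0.48.

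Kcnq1, inside which Kcnq1ot1 lies, read 4.96, 4.47, 4.12 and 5.17 CPM in PT-2385 ovaries, against 6.47, 7.47, 5.3 and 6.55 CPM in vehicle ovaries. All PT-2385 ovaries were below all vehicle ovaries, as were 3.77% of genes. The log2 fold change of -0.46 did not pass (SE 0.138, adjusted p = 0.207, edgeR) with all libraries, and passed at -0.54 without vehicle replicate 3 (SE 0.13, adjusted p = 0.0327, edgeR). In kidney its log2 fold change was -0.05, with an SE of 0.0613 (adjusted p = 0.708, edgeR).

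Cdkn1c was the 1 gene called by edgeR among 11 tested imprinted neighbours of the members in kidney, where 5.53% of all genes were; DESeq2 called it and Slc22a18, a transporter gene, and 4 had an unadjusted p under 0.05. It averaged 28.9 ± 1.28 CPM in PT-2385 kidneys and 22.9 ± 2.66 CPM in vehicle kidneys (SD, n = 4 each). Every PT-2385 kidney, the lowest at 27.6 CPM, lay above every vehicle kidney, the highest at 26.0 CPM, as in 5.37% of genes. It rose by 0.35 on the log2 scale (SE 0.0761, adjusted p = 0.0176, edgeR), a call that was made in 10 of 13 alternatives, with adjusted p from 0.000118 to 0.0757. In the same kidneys Kcnq1ot1, known as its silencer in cis, averaged higher too, without passing the test. In ovary none of the 10 neighbours tested passed with edgeR or with DESeq2, and 1, Kcnq1, had an unadjusted p under 0.05. Over all genes, such a p was reached by 2392 of 18125 in ovary and 4101 of 17763 in kidney, and DESeq2 called 325 and 1455. Among other imprinted genes, 0 of 20 passed in ovary and 0 of 19 in kidney with either tool, with 2 and 4 at an unadjusted p under 0.05. The smallest p among them belonged in kidney to Slc38a4, an amino acid transporter, at 0.43 (adjusted p = 0.0683), and in ovary to Peg10, a gene of retrotransposon origin, at 0.26 (adjusted p = 0.35, edgeR).

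Of 19 genes for paraspeckle proteins tested in kidney, 4 rose with PT-2385 and 0 fell, where 1.83% of all genes rose, and their median log2 fold change was 0.12 against 0.01 for all genes. Sfpq, a core protein that binds Neat1, averaged 179.7 ± 19.8 CPM in PT-2385 kidneys and 141 ± 13.1 CPM in vehicle kidneys (SD, n = 4 each), a rise of 0.35 (SE 0.0802, adjusted p = 0.0271, edgeR). Hnrnph3 rose by 0.30 (adjusted p = 0.0105), Srsf10 by 0.22 (adjusted p = 0.0333) and Hnrnph1 by 0.17 (adjusted p = 0.0374, edgeR), all splicing regulators. The count of 4 dropped to 1 without PT-2385 replicate 1 or 4 or vehicle replicate 2 or 4 and to 0 without PT-2385 replicate 3, while the log2 fold changes then stayed at 0.37 for Sfpq, 0.28 for Hnrnph3, 0.21 for Srsf10 and 0.18 for Hnrnph1, and the calls over all genes came to 240 against 982. Of 19 speckle and splicing genes 1 rose, the kinase Clk2, by 0.28 (adjusted p = 0.00841, edgeR). In kidney DESeq2 called 6 paraspeckle and 5 speckle genes, and 10 and 11 had an unadjusted p under 0.05. Of all 17763 genes tested there, DESeq2 called 1455, and 4101 had an unadjusted p under 0.05. In ovary no gene of either list passed with edgeR, 3 of each had an unadjusted p under 0.05, and DESeq2 called 0 and 1. Of all 18125 genes tested in ovary, 2392 had an unadjusted p under 0.05, and DESeq2 called 325.

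Among other nuclear or regulatory noncoding RNAs, 0 of 11 passed in ovary and 1 of 12 in kidney with edgeR. Of all genes 0.0497% and 5.53% did. In ovary DESeq2 also called 0 of the 11, and 1 had an unadjusted p under 0.05. The kidney call was Dleu2, host of miR-15a and miR-16, which averaged 12.5 ± 0.69 CPM in PT-2385 kidneys and 10.3 ± 0.434 CPM in vehicle kidneys (SD, n = 4 each). It rose by 0.28 (SE 0.0765, adjusted p = 0.0421, edgeR), and this call was made in 6 of 13 alternatives. Xist averaged 1229 ± 146 CPM in PT-2385 ovaries and 1257 ± 406 CPM in vehicle ovaries, and 786 ± 45.0 CPM in PT-2385 kidneys and 720.0 ± 34.6 CPM in vehicle kidneys, with adjusted p of 0.971 and 0.159 (edgeR). Of the snoRNA hosts 0 of 13 passed in either organ with edgeR, where DESeq2 called 0 in ovary and 1 in kidney and an unadjusted p under 0.05 was reached by 1 and 2. All 13 had a positive log2 fold change in kidney, with a median of 0.12 against 0.00661 for all genes. This was not particular to the hosts. There 12 of 13 mitochondrially encoded mRNAs, 17 of 19 speckle and splicing genes and 15 of 19 other imprinted genes were positive, against 6 of 11 imprinted neighbours. Snhg8 had the smallest adjusted p of the hosts, 0.0686 (edgeR). None of the 13 mitochondrially encoded mRNAs passed in either organ with edgeR. In ovary DESeq2 called 0 and none had an unadjusted p under 0.05, and in kidney DESeq2 called 1 and 4 had one. Across all genes DESeq2 called 325 in ovary and 1455 in kidney. An unadjusted p under 0.05 was reached by 2392 of 18125 and 4101 of 17763.

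The mRNA of Epas1 averaged 165 ± 1.32 CPM in PT-2385 ovaries and 171 ± 15.8 CPM in vehicle ovaries (SD, n = 4 each). In kidney it averaged 197 ± 8.14 CPM with PT-2385 and 195 ± 9.05 CPM with vehicle (SD, n = 4 each). Since PT-2385 acts on the protein, these levels cannot show whether the drug worked. Of 12 hypoxia-related genes, 2 were called as falling in kidney, where 3.7% of all genes were. Bnip3 fell by 0.26 (adjusted p = 0.0271) and Ndrg1 by 0.24 (adjusted p = 0.0323, edgeR). Yet 9 of the 12 had a log2 fold change above 0 in kidney, with a median of 0.0287 against 0.00661 for all genes. In ovary 0 of 12 passed with edgeR, and 4 had an unadjusted p under 0.05, as did 2392 of all 18125 genes. DESeq2 called 325 genes there. There too 9 of the 12 log2 fold changes were above 0, with a median of 0.0991. Of the 12, DESeq2 called 2 in opposite directions, Adm, with an edgeR log2 fold change of -0.63 (adjusted p = 0.109), and Egln3, with one of 0.41 (adjusted p = 0.124).

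For each member the genes with the most similar pattern over the 8 libraries of an organ were sought among 11148 genes in ovary and 11170 in kidney, by Pearson's r of log2 CPM. These values describe the libraries, since genes share each library's depth and composition. In ovary Malat1 went with Ulk3 (r = 0.991), Spaca6 and Csf2ra, Neat1 with Ppcdc (0.986), Ap4m1 and Gramd1a, and Kcnq1ot1 with Lsm7 (0.994), Rps27l and Atp5l. Meg3 went with Ccnl1 (0.973), Rian with Fam8a1 (0.98) and H19 with Tmem230 (0.95). In kidney Neat1 went with Arl4d (0.973), Kcnq1ot1 with Ywhah (0.975), Malat1 with Tpp2 (0.925) and Rian with Cpe (0.942). Meg3 went with Col1a1 (0.988), a chain of fibrillar collagen, and H19 with Col6a2 (0.978), a chain of collagen VI, while Hcls1, a gene of blood cells, was among the 3 nearest to both.

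Meg3 and H19 had their widest departures in the same 3 kidneys, and Rian shared their sign in these. PT-2385 replicate 1 departed from the other PT-2385 kidneys by 0.56 in Meg3, 0.85 in Rian and 0.80 in H19, and replicate 4 by -0.49, -0.56 and -0.68. Vehicle replicate 4 departed from the other vehicle kidneys by 0.53, 0.43 and 0.69. In the same libraries Malat1 departed by 0.19, -0.09 and 0.04, and Kcnq1ot1 by 0.27, 0.11 and 0.07. Vehicle replicate 1 was low in all 3 RNAs, by -0.24 in Meg3, -0.49 in Rian and -0.38 in H19. For Rian this was wider than in vehicle replicate 4. In replicate 2 the 3 RNAs did not share a sign. They departed by 0.29 in Meg3, -0.26 in Rian and 0.14 in H19 with PT-2385, against -0.30, 0.10 and -0.25 with vehicle. The summed adipocyte markers of the kidneys read 207, 154, 47.4 and 58.3 CPM with PT-2385, against 45.1, 92.0, 77.1 and 102 CPM with vehicle, and were thus highest in the kidney with the most Meg3, Rian and H19 of the PT-2385 group and likewise of the vehicle group. The summed stroma markers (9 genes) were also highest in those kidneys. They came to 642 CPM of 565 to 642 CPM with PT-2385, against 653 CPM of 558 to 653 CPM with vehicle. Gene by gene the stroma markers did not rise together. Of 8 tested, 5 lay below the rest of the group in PT-2385 replicate 1 and 4 in vehicle replicate 4. Their medians were -0.0158 and 0.0226. The summed leukocyte markers (9 genes) were highest in those kidneys only by a narrow margin. They read 101, 88.3, 100.4 and 88.8 CPM with PT-2385 (replicates 1 to 4), against 110.2, 111, 98.1 and 112 CPM with vehicle. The summed endothelial markers (7 genes) were lowest in PT-2385 replicate 1, at 469 CPM of 469 to 530.2 CPM. In vehicle replicate 4 they came to 471 CPM of 433 to 493 CPM. None of these markers was at 0, and their part in these values was not tested.

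The tissues matched their labels. Foxl2, Fshr and Cyp19a1 of granulosa cells and Zp3, Oosp1, Nlrp5 and Figla of oocytes were at 0 in all kidneys, and the 11 kidney tubule markers summed to between 23873 and 26536 CPM in kidneys and between 38.9 and 107 CPM in ovaries. Assigned read pairs ran from 17.2 to 33.6 M in ovary and from 12.7 to 43.3 M in kidney. PT-2385 kidney replicate 3 carried another flow-cell code than the other 15 libraries.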

How the data were processed

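Read pairs were counted per gene by the authors with featureCounts 2.0.6 over exons of the GENCODE M27 basic annotation, per the file headers; these deposited counts are raw whole numbers. FastQC, STAR and the build GRCm39 are named, per the submitters' processing notes; tool versions are not given in the sources used here. Libraries were made with a stranded polyA kit, per the labels' protocols. Symbols came from GENCODE M21 by identifier (52083 of 55359, 94.1%). Genes without a symbol were kept in all fits and held at most 3.14% of a library.

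Genes passing filterByExpr (count 10, total 15) were fitted in edgeR 4.0.16 (robust quasi-likelihood, TMM, limma 3.58.1, R 4.3.3) within each organ, with 6 residual degrees of freedom, and over all 16 libraries for the interaction and the organs, with 12. P-values were adjusted by Benjamini-Hochberg over all genes tested and called under 0.05. Departures and likeness used log2 CPM with a prior count of 2; likeness was limited to named genes of at least 5 CPM. The members and the 8 gene and 10 marker lists were chosen with earlier results of these data known, so the counts for them are descriptions and no list was tested as a set. The genes named are the 6 members, from each list up to 4 called genes or else up to 2 by smallest p (for drug comparisons; those called between organs are not all named), Dlk1, Igf2, Cdkn1c, Kcnq1, Xist and Epas1, and the 3 genes most like each member. Alternatives were median-ratio scaling, library totals, no filter, DESeq2 1.42.0, a block on replicate number and each library left out. The scripts were tested on simulated counts (seed 1). Figures used Python 3.11.15, numpy 2.4.6, pandas 2.3.3 and matplotlib 3.10.9. Promoters came from RefSeq (GRCm38.p6).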

Additional observations from a re-analysis of the deposited data

Results flagged for a closer look

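Of the 24 combinations of member, organ and treatment examined for a library far from the other 3, 1 stood out. Kcnq1ot1 in ovary PT-2385 replicate 1 read 59.2 CPM, while the other PT-2385 ovaries read 46.4, 46.3 and 46.2 CPM. Chance alone gives about 1 in 20 such groups. Ovary vehicle replicate 3 did not stand out by this measure for any member, in a group whose range also spans the high replicate 2.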

How the results depend on the processing

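No member was called in ovary or for the interaction under any alternative run, and 5 of 6 were called between organs under each of them, with Malat1 as the 6th under DESeq2 (-0.45, adjusted p = 0.0418), the replicate block (-0.51, adjusted p = 0.0219) and without ovary vehicle replicate 2 (-0.68, adjusted p = 0.00841). In kidney 1 member, Kcnq1ot1, was called without the filter (0.27, adjusted p = 0.0167), with DESeq2 (0.27, adjusted p = 0.0441) and without PT-2385 replicate 2 (0.34, adjusted p = 0.0197, edgeR); leaving out each library in turn gave 0 or 1 members. The count of all genes called in ovary, 9, was 330 without the filter, 325 with DESeq2 and 395 with the replicate block, and 0 to 1090 with a library left out. In kidney, 982, it was 1761 without the filter, 1455 with DESeq2 and 1274 with the replicate block, and 240 to 1370 with a library left out. For the interaction, 38, it was 20 with median-ratio scaling, 15 with library totals, 167 without the filter, 301 with DESeq2 and 52 with the replicate block, and 0 to 813 with a library left out. The paraspeckle count in kidney, 4, ran from 0 to 4 with a library left out. Scaling by library totals split the kidney calls into 499 higher and 489 lower, against 325 and 657, and moved the median of all genes between organs by 0.25 on the log2 scale. Against all 7 other ovaries, vehicle replicate 3 departed by -1.02 in Neat1 and 0.18 in H19.

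Log2 fold changes near 0 took both signs when each library was left out in turn. In ovary Malat1 ran from -0.377 to 0.0747 (without vehicle replicates 3 and 2), Kcnq1ot1 from -0.0997 to 0.314 (also 3 and 2) and Xist from -0.247 to 0.069, with 0.0308 under the replicate block. In kidney Malat1 ran from -0.0513 to 0.0545, Meg3 from -0.243 to 0.085, Rian from -0.307 to 0.0883 and H19 from -0.143 to 0.326. For the interaction Malat1 ran from -0.358 to 0.0869 and Kcnq1ot1 from -0.352 to 0.0561. The causes were not tested.

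Between treatments, replicates of the same number correlated at r from -0.172 to 0.236 in ovary and from -0.064 to 0.0522 in kidney. In both organs numbers 2 and 3, but not 1 and 4, had the library of their own number as best match. Between organs r ran from -0.0427 to 0.0905. There numbers 1, 2 and 4, but not 3, had their own number as best match with either treatment. The main fits paired no libraries. Not every pair deviated together, so the block stands only as an alternative. H19 and Rian in kidney rest on few read pairs, down to 33 in a library, which limits their precision.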
